A study of Mus musculus with 2 samples.

Results

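Cycling microglia were the cells of the ischemic mouse brain that carried both microglial transcripts and transcripts of 4 cell division genes, Mki67, Top2a, Birc5 and Ube2c. They were chosen by measured counts of unique molecular identifiers (UMIs), each of which stands for 1 captured transcript. A barcode counted as a cell from 1000 UMIs and 500 detected genes upwards, provided that no more than 10% of its UMIs were mitochondrial. The microglial gate took cells in which P2ry12, Tmem119, Sparc, Gpr34, Olfml3 and Siglech together gave at least 10 of every 10000 UMIs, with at most 1 UMI of Ms4a7 and with S100a8 and S100a9 under 20 of 10000. Within that gate, a cell was called cycling when the 4 division genes summed to at least 3 UMIs. The rule found 691 cells, 425 in replicate 1 and 266 in replicate 2, of 12872 cells in the microglial gate and 22960 cells in all.

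The study held 1 group in 2 replicate libraries: cells of the ischemic brain of Foxp3Egfp mice, aged 6 to 8 weeks, whose regulatory T cell gene Foxp3 carries a green fluorescent reporter. The brains were flushed with PBS, CD45+CD11b+CD3-F4/80+ cells were sorted, and 3′ single-cell libraries were made. The labels name the sorted cells macrophages, say that cDNA of several stroke mice was pooled, and leave unsaid whether each replicate came from different animals. The p-values below therefore measure only how the differences between classes of cells vary from one of these libraries to the other. That spread is shared over all classes of the fit and may be technical. With no sham or uninjured brain analysed here, the comparisons run between classes of cells within the same libraries. The 425 and 266 cycling microglia were set against non-cycling microglia, which were cells of the same gate with 0 UMIs of the 4 division genes and a total UMI count between the 10th and 90th percentile of the cycling cells (2679 cells in replicate 1 and 2321 in replicate 2).

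Microglia are the resident macrophages of the brain; they keep their numbers by dividing in place and depend on signals through the receptor Csf1r. Injury makes them leave their resting state and divide. A dividing cell first copies its DNA in S phase, with fork machinery that includes the minichromosome maintenance (MCM) helicase. It then condenses and separates its chromosomes in mitosis on a spindle built by kinesins, kinetochore proteins and Aurora and Polo kinases. Genes of the first step are controlled largely by E2F factors, and those of the second by the DREAM and MuvB-FOXM1 complexes, which bind the CHR and CCAAT elements of promoters.

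The genes that chose the cells were read as a check, without a test. Birc5 (survivin, a subunit of the chromosomal passenger complex) had UMIs in 88.9% and 88.0% of the cycling microglia of replicates 1 and 2, Mki67 (a coat protein of mitotic chromosomes) in 80.5% and 66.9%, Ube2c (the ubiquitin-conjugating enzyme of the anaphase-promoting complex) in 71.5% and 73.7%, and Top2a (the topoisomerase that untangles sister DNA) in 67.5% and 57.5%. All 4 genes were present in 41.6% and 32.7% of the members, and 18 and 28 members had only 1 of them. Together they summed to a median of 7 and 8 UMIs per cell, with a maximum of 51 and 179. Their summed level was 1166 and 1094 CPM (UMIs of a gene or list per 1000000 UMIs of the class) in cycling microglia, against 133 and 94.3 CPM in the free RNA of near-empty barcodes with under 100 UMIs.

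The microglial label was set beside markers, as a description. The gate itself required the 6 microglial genes, so their detection is no check of the label. At least 5 of the 6 were detected in 310 of 425 members of replicate 1 (72.9%) and in 244 of 266 of replicate 2 (91.7%), against 68.1% and 91.7% of all cells of the gate with 0 division UMIs, and 45 and 14 members had 3 or fewer of them. Sall1, a transcription factor gene of microglia that the rule did not use, was at 91.5 and 82.2 CPM in cycling microglia, against 4.29 and 3.06 CPM in cycling macrophages (15 UMIs and 1 UMI). The 10 markers of monocyte-derived macrophages summed to 2888 and 2084 CPM in cycling microglia and to 2917 and 1803 CPM in those gate cells, with no marker at 0. In cycling macrophages the same sum was 28135 and 28040 CPM. The 10 include Ms4a7, which the rule limited in microglia and the macrophage gate required. The 9 neutrophil markers, which include the S100a8 and S100a9 that the rule also limited, gave 133 and 140 CPM in cycling microglia. They gave 187 and 161 CPM in all gate cells with 0 division UMIs. Ltf and Ly6g were at 0 in the cycling cells of both libraries. Hemoglobin genes were uneven, at 2.60 and 2771 CPM in cycling microglia and 311 and 658 CPM in all gate cells with 0 division UMIs. A single cell of replicate 2 held 99.8% of the hemoglobin UMIs of its members.

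Not every member was microglial. Of the members, 9 in replicate 1 (2.12%) and 8 in replicate 2 (3.01%) had under 50 of 10000 UMIs from 8 pan-myeloid genes. These cells, called collagen-rich below, had entered the gate through Sparc, a matrix protein gene that fibroblasts also express, at 2881 and 4048 CPM. They carried collagen Col1a1 at 3063 and 3917 CPM, Col3a1 at 2891 and 3566 CPM and Mgp at 6652 and 2399 CPM, whereas the fractalkine receptor Cx3cr1, one of the 8 genes, was at 142 and 32.6 CPM. In the other 416 and 258 members Col1a1 was at 49.9 and 0.852 CPM and Cx3cr1 at 1765 and 1502 CPM. Such cells made up 3.24% and 1.69% of all cells in the gate with 0 division UMIs. Values that depend on them are given below with and without them.

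Cycling microglia had a median of 8312 UMIs in replicate 1 (lowest 1502, highest 31382) and 13230 UMIs in replicate 2 (lowest 1269, highest 52709). Mitochondrial UMIs were 2.20% and 1.99% of the total. In replicate 1 a doublet caller marked 8.94% of them, against 8.59% of the non-cycling microglia in the same range of UMIs. In replicate 2 it marked no cell, and the cells with the highest doublet scores, taken in its place, were 7.52% of the cycling and 7.50% of the non-cycling microglia. The libraries held 101893367 and 62850768 UMIs and shared 31 cell barcodes of 15050 and 7910. Just inside the division threshold, the 69 and 55 members with exactly 3 UMIs had 385 and 263 CPM of Hmgb2, a chromatin protein gene that is high in dividing cells and was not in the rule. Just outside it, the 128 and 61 gate cells with 2 UMIs had 281 and 217 CPM. At the Ms4a7 limit, 59 and 8 members had 1 UMI, and 31 and 7 cells that met the other limits had 2. The macrophage marker Lyz2 was at 2094 and 2215 CPM in the first set and 4933 and 3346 CPM in the second. Cx3cr1 was at 1532 and 742 CPM, against 1428 and 1205 CPM.

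Of the microglial gate, 5.91% of replicate 1 (425 of 7197, exact 95% interval 5.37 to 6.47%) and 4.69% of replicate 2 (266 of 5675, 4.15 to 5.27%) passed as cycling. The intervals cover counting error only. With each cell thinned to 2000 UMIs, which left out 1715 and 207 shallower cells, the same threshold took 2.99% and 1.48%. The macrophage gate (fewer than 10 of 10000 UMIs from the 6 microglial genes and at least 2 UMIs of Ms4a7) gave 6.77% and 2.78%, and 2.89% and 0.746% after thinning. Neutrophil-rich barcodes, which come from a largely non-dividing cell type, gave 4.90% (5 of 102) and 3.46% (9 of 260), and 6.15% and 4.02% after thinning, at median depths of 2696 and 2254 UMIs against 3930 and 5433 UMIs in the microglial gate. As counted, the shares in microglia lay inside the exact 95% intervals of those in neutrophil-rich barcodes (1.61 to 11.1% and 1.59 to 6.47%). After thinning, the share in microglia lay inside that interval in replicate 1 (1.70 to 15.01%) and below it in replicate 2 (1.63 to 8.11%). The share in microglia is therefore read as the share that passed the threshold and not as the share of microglia in division.

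Across the genome, 996 of 11178 tested genes were higher in cycling than in non-cycling microglia and 764 were lower at an adjusted p under 0.05 (edgeR's quasi-likelihood test on UMI sums per library, with library as a block, Benjamini-Hochberg adjustment). That is a background of 8.91% of genes higher and 6.83% lower, or 15.7% in either direction, with a median log2 fold change of -0.11 over all tested genes. Log2 fold changes below are cycling minus non-cycling, ± a standard error worked back from the F statistic of that test. The spread behind it is shared over the 12 class sums of the 2 libraries. Paired values are replicate 1 and replicate 2. Leaving out the cycling microglia of 1 library, so that the remaining library stood alone and was assumed to vary like the other classes, reduced the higher genes to 581 without replicate 1 and 417 without replicate 2, and the lower ones to 239 and 66. Below, without replicate 1 or 2 means this. Cell division genes travel with the 4 genes that chose the cells, so their direction describes the members and is no independent finding. In all, 194 of 247 tested genes of 9 division lists were higher and 1, Myc, was lower.

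The DNA replication machinery was higher almost throughout. Of 39 genes of the origin and fork, 35 were higher and 0 lower, with a median log2 fold change of 2.07 (31 without replicate 1 and 28 without replicate 2). Clspn, the claspin adaptor that guards stalled forks, had 34.6 and 31.9 CPM in cycling microglia, against 1.78 and 1.45 CPM in non-cycling microglia. Its log2 fold change was 4.28 ± 0.30 (adjusted p = 8.32e-07). Pole, the catalytic subunit of the leading-strand polymerase, had a log2 fold change of 4.14 ± 0.44 (adjusted p = 3.26e-05) and Mcm10, which helps to start the forks, one of 3.97 ± 0.44 (adjusted p = 5.17e-05). The groups did not overlap for any of the 3 genes, which were named for their large changes, so this is no added evidence.

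Enzymes that supply DNA precursors rose in part, with 14 of 24 higher and 0 lower at a median log2 fold change of 0.71 (9 without replicate 1 and 8 without replicate 2). Rrm2, the regulated subunit of ribonucleotide reductase, which makes deoxyribonucleotides, had 72.8 and 75.6 CPM in cycling microglia, against 1.84 and 1.01 CPM in non-cycling microglia, a log2 fold change of 5.65 ± 0.25 (adjusted p = 1.42e-08). Thymidine kinase Tk1 was higher by 4.38 ± 0.25 and thymidylate synthase Tyms by 3.06 ± 0.15 on the log2 scale. The purine enzymes Adsl (0.57 ± 0.23, adjusted p = 0.116) and Adss (0.18 ± 0.21, adjusted p = 0.624) did not pass the test.

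Chromatin genes were higher in 27 of 29 cases and lower in 0, with a median log2 fold change of 1.70. The linker histone gene Hist1h1b had 125 and 179 CPM in cycling microglia and 3.51 and 7.001 CPM in non-cycling microglia, a log2 fold change of 4.77 ± 0.22 (adjusted p = 2.15e-08). Replication-dependent histone mRNAs mostly lack a poly(A) tail, and 3′ libraries that prime on poly(A) capture only part of them. Hist1h3c, a core histone gene with close paralogs, was higher by 5.84 ± 0.47 on the log2 scale, and Asf1b, a chaperone that hands histones to new DNA, by 4.42 ± 0.32.

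Cyclins and kinases of S phase and mitosis rose, and the D-type cyclins that start the cycle did not pass the test. Of 26 cyclins, kinases and inhibitors 19 were higher and 0 lower, with a median log2 fold change of 2.40 (16 higher with either library left out). Ccnb1, the cyclin B that drives entry into mitosis, had 73.0 and 70.9 CPM in cycling microglia, against 1.34 and 0.484 CPM in non-cycling microglia, a log2 fold change of 6.28 ± 0.43 (adjusted p = 5.66e-07). Ccna2, the cyclin of S and G2 phase, was higher by 6.99 ± 0.27 and Ccnb2 by 6.20 ± 0.40 on the log2 scale. Ccnd1, which couples growth factor signals to the cycle, stood at 68.1 and 70.1 CPM in cycling microglia and 63.9 and 62.3 CPM in non-cycling microglia, a log2 fold change of 0.06 ± 0.16 (adjusted p = 0.856). Ccnd2 (0.16 ± 0.69, adjusted p = 0.905) and Ccnd3 (-0.10 ± 0.15, adjusted p = 0.714) are the other D-type cyclins and did not pass either. The inhibitor Cdkn1a (p21) did not pass the test at -0.02 ± 0.36 (adjusted p = 0.978), and Cdkn2a, whose locus encodes p16 and p19Arf, was higher by 2.36 ± 0.26 (adjusted p = 4.97e-05).

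Of 19 transcription factors of the cycle that were tested, 10 were higher and 1 lower, with a median log2 fold change of 0.78 (8 higher without replicate 1 and 6 without replicate 2, with 0 lower in both). The repressive E2F factors E2f7 (6.56 ± 0.74) and E2f8 (4.45 ± 0.48) and the mitotic activator Foxm1 (4.69 ± 0.37) had the largest differences, with adjusted p of 5.66e-05, 3.71e-05 and 2.16e-06. Myc, a growth-promoting factor, was the 1 lower gene of the division lists, with 26.0 and 29.2 CPM in cycling microglia and 34.2 and 42.3 CPM in non-cycling microglia, a log2 fold change of -0.54 ± 0.15 (adjusted p = 0.0297). The call needed both libraries, with an adjusted p of 0.208 without replicate 1 and 0.212 without replicate 2.

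The mitotic apparatus showed the widest differences. Of 53 spindle, kinetochore and cytokinesis genes, 52 were higher and 0 lower, with a median log2 fold change of 5.31, and 52 were also higher with either library left out. Hmmr, a spindle assembly protein, had 91.2 and 88.5 CPM in cycling microglia, against 0.278 and 0.132 CPM in non-cycling microglia. The log2 fold change was 8.62 ± 0.39 (adjusted p = 2.35e-08), from 5 UMIs in the 2679 non-cycling cells of replicate 1 and 3 in those of replicate 2. Ska1, which holds kinetochores on microtubules, was higher by 7.85 ± 0.41, and Nusap1, which bundles spindle microtubules, by 7.72 ± 0.26. Tuba1a, an alpha-tubulin of post-mitotic cells, was the gene that did not pass (0.15 ± 0.24, adjusted p = 0.722), while its close paralogs Tuba1b and Tuba1c, with which it may share reads, were higher by 1.97 ± 0.11 and 1.63 ± 0.17.

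**Figure D1:**
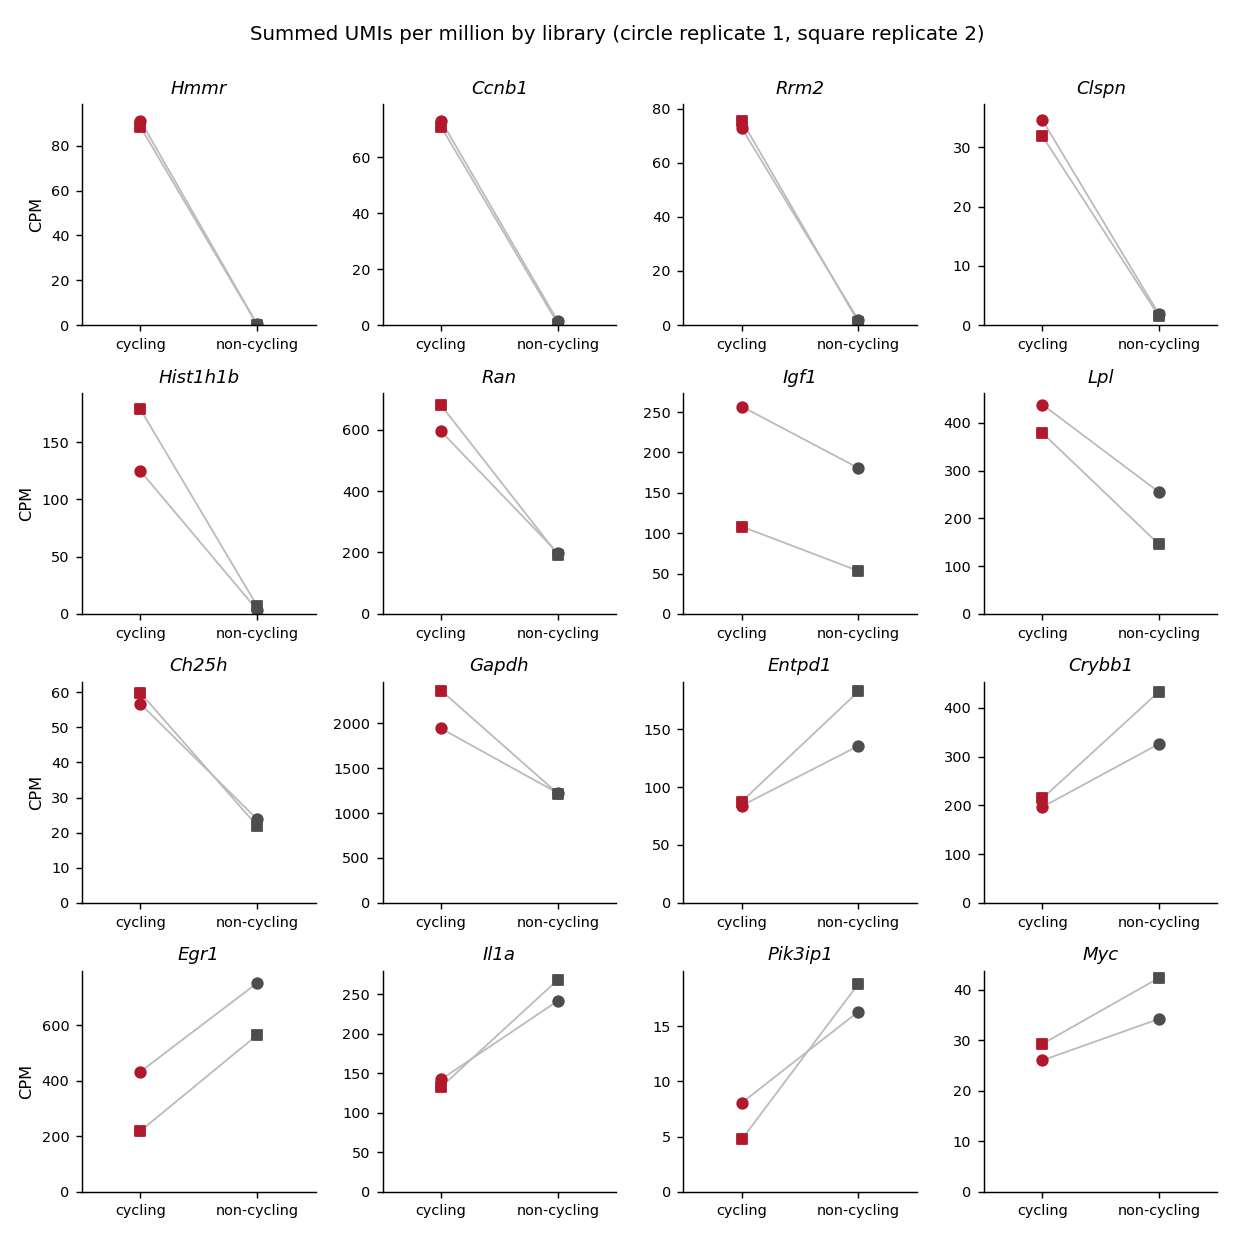
Levels of 16 genes in cycling (left) and non-cycling (right) microglia, in CPM on linear axes that start at 0; the circle is replicate 1 and the square replicate 2. The division genes Hmmr, Ccnb1, Rrm2, Clspn and Hist1h1b lie near 0 in the non-cycling cells and apart from it in both libraries of the cycling cells, while Igf1 overlaps between the classes.

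The promoters of these genes are shown because the same short motifs recur in them. Among the 300-base windows from 250 bases before to 50 bases after the start (RefSeq, GRCm38.p6), the CHR letters TTTGAA, on either strand, occurred in 33 of 49 windows of the spindle list (67.3%), against 17.9% of all 32851 windows. The letters CCAAT, on either strand, occurred in 73.5% of the spindle windows and 37.4% of all windows, and both motifs together in 53.1% and 6.95%. CCAAT alone was not particular to the spindle list. Over the other lists its share ran from 19.0% for inflammatory mediators to 76.9% for antigen presentation. It was 59.5% for replication and 45.7% for microglia identity. Of the replication list, 14 of 37 windows (37.8%) held one of the E2F words TTTCCCGC, TTTCGCGC, TTTGCCGC or TTTGGCGC on either strand, against 2.26% of all windows, and 10.8% held CHR. The spindle windows held an E2F word in 4.08%, and windows of microglia identity genes held CHR in 17.1% and an E2F word in 2.86%. Such matches describe letters only. The first 4 windows below are mitotic genes, with CHR and CCAAT matches in capitals, and the last 2 are replication genes, with E2F words in capitals, all on the strand of the gene. In the Mcm5 window 2 E2F words overlap.
Plk1 (Polo kinase 1), chr7:122159185-122159484, plus strand: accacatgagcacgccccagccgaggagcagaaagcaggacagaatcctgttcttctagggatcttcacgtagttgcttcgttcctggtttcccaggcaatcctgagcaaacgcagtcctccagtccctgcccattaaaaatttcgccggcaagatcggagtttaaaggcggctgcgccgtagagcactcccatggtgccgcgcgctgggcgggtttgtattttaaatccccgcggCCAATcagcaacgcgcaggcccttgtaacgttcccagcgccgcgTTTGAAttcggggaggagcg
Cdc20 (activator of the anaphase-promoting complex), chr4:118437294-118437593, minus strand: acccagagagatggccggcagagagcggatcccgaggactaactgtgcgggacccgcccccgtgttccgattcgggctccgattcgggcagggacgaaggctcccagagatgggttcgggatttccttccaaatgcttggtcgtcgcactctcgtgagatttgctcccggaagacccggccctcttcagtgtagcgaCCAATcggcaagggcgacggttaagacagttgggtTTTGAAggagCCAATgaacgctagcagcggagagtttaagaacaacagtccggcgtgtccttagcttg
Ccnb2 (cyclin B2), chr9:70421505-70421804, minus strand: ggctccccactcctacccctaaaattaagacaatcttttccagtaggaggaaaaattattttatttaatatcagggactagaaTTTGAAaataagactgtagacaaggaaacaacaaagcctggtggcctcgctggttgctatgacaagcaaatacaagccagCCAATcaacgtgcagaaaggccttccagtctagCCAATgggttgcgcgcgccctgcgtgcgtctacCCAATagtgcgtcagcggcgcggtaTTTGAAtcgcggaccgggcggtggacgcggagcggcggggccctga
Hmmr (spindle assembly), chr11:40733388-40733687, minus strand: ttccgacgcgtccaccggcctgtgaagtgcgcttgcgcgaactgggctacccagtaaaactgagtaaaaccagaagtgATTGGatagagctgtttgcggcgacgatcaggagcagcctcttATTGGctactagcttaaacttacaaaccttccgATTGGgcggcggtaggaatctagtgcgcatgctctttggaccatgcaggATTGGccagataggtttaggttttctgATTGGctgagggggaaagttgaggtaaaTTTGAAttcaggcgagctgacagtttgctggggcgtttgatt
Clspn (claspin), chr4:126556730-126557029, plus strand: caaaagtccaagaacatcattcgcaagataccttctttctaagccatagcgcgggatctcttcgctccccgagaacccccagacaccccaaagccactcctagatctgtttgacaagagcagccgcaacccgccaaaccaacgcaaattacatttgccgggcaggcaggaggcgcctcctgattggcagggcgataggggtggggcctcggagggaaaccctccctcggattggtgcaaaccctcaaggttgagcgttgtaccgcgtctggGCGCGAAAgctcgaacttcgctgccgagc
Mcm5 (helicase subunit), chr8:75109259-75109558, plus strand: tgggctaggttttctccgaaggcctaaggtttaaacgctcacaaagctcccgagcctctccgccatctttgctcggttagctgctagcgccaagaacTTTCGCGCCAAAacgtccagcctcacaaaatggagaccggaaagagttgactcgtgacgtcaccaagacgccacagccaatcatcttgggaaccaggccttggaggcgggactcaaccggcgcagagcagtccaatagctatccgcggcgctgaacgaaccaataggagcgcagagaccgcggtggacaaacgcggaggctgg

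Genes that hold, cut and release sister chromatids followed. Of 17 cohesin and condensin genes 13 were higher and 0 lower (median log2 fold change 1.61). Esco2, which locks cohesin onto replicated DNA, had 30.2 and 39.3 CPM in cycling microglia and 0.278 and 0.176 CPM in non-cycling microglia, a log2 fold change of 7.09 ± 0.39 (adjusted p = 2.36e-07). The condensin subunit Ncapg was higher by 6.78 ± 0.47 and the cohesin protector Cdca5 (sororin) by 4.78 ± 0.52. Of 20 genes of the anaphase-promoting complex and mitotic exit 9 were higher and 0 lower, and 5 with either library left out. These were led by the regulators Cdc20, with 63.4 and 79.3 CPM in cycling microglia against 0.613 and 0.748 CPM in non-cycling microglia (6.61 ± 0.23, adjusted p = 4.28e-09), and the inhibitor Fbxo5 (4.37 ± 0.31, adjusted p = 7.13e-07). The ubiquitin-conjugating enzyme Ube2s was higher by 1.70 ± 0.11. The median of that list was 0.37.

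DNA repair and checkpoint genes were higher too. Of 20 genes of the list 15 were higher and 0 lower, with a median log2 fold change of 2.27 (15 without replicate 1 and 10 without replicate 2). The nuclease Exo1, which resects DNA ends, had a log2 fold change of 4.76 ± 0.59 (adjusted p = 1.41e-04). Of 14 tested p53 targets 1 was higher, Gtse1 (4.52 ± 0.55, adjusted p = 1.15e-04), which is itself a spindle gene made in G2 and mitosis, and the median log2 fold change was 0.09. The p53 regulator Mdm2 had a log2 fold change of 0.06 ± 0.20 (adjusted p = 0.868) and the death effector Bax one of 0.37 ± 0.13 (adjusted p = 0.0822).

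Most members held UMIs of both the replication list and the mitotic list. As counted, 93.2% of cycling microglia of replicate 1 and 94.7% of replicate 2 had at least 1 UMI of each. Thinned to 2000 UMIs, 66.9% and 58.2% had both, 25.3% and 30.0% mitotic only, 5.44% and 6.84% replication only and 2.36% and 4.94% neither. In non-cycling microglia thinned alike, 13.6% and 12.7% had both and 39.7% and 40.03% neither. More mitotic than replication UMIs were found in 334 members of replicate 1 (78.6%) and 213 of replicate 2 (80.1%), and more replication UMIs in 74 (17.4%) and 45 (16.9%). The rule itself draws on genes that peak in G2 and mitosis, so this balance describes the chosen cells and not all microglia in the cycle.

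Genes outside both lists are given as a description, and not all sorted by phase. In the members with more replication UMIs, cyclin Ccne2, which acts at the entry to S phase, was at 47.7 and 50.2 CPM, against 11.9 and 10.7 CPM in those with more mitotic UMIs. Ccnb1 was at 13.4 and 19.6 CPM in the first set, against 88.7 and 87.0 CPM in the second. Cdc20 was at 2.98 and 8.56 CPM, against 79.1 and 101.1 CPM. Tyms was nearly even, at 113 and 117 CPM against 91.7 and 100.1 CPM. The S-phase histone gene Hist1h2ap was lower in the members with more replication UMIs, at 359 and 242 CPM, against 477 and 588 CPM in those with more mitotic UMIs. Hist1h1b was at 137 and 94.2 CPM, against 127 and 206 CPM, so the libraries differed in direction.

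**Figure D2:**
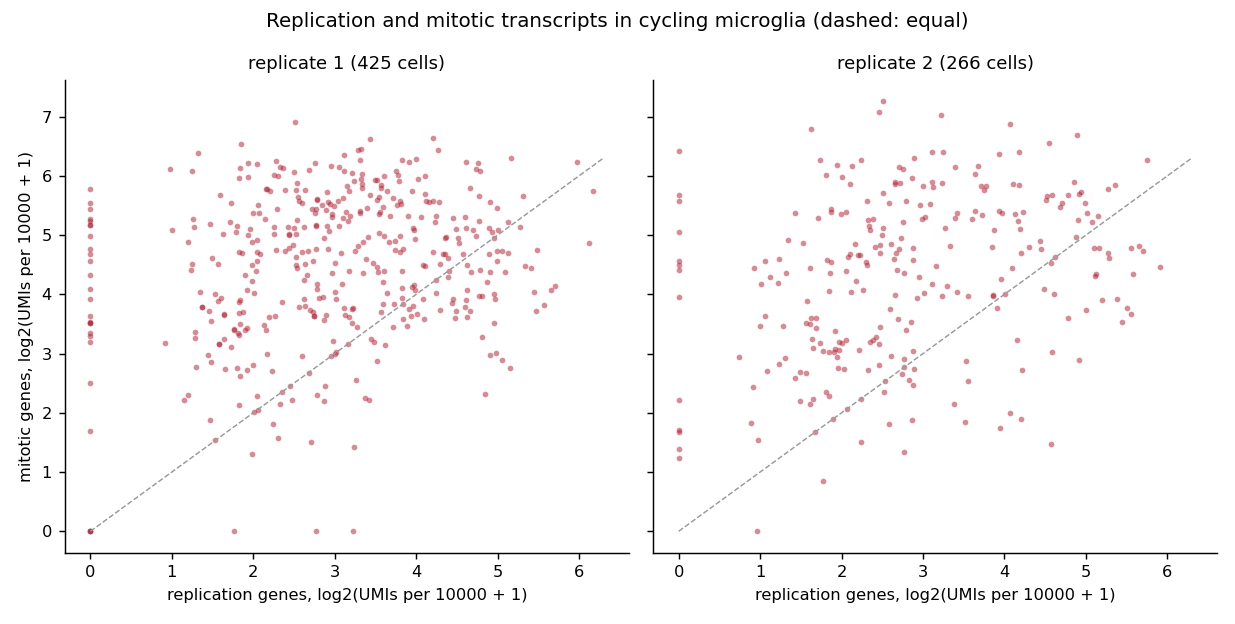
Each point is 1 cycling microglial cell, placed by the level of the replication genes (x axis) and the mitotic genes (y axis), as log2 of UMIs per 10000 plus 1, with 425 cells of replicate 1 and 266 of replicate 2 in separate panels. Most points lie above the dashed line of equal levels (78.6% and 80.1% have more mitotic UMIs), with a smaller arm below it.

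Growth genes rose more narrowly than division genes. Of 25 genes of ribosome assembly, chaperones and nuclear transport, 8 were higher and 0 lower, with a median log2 fold change of 0.33 (5 without replicate 1 and 4 without replicate 2). Ran, the GTPase of nuclear transport and spindle assembly, had 594 and 679 CPM in cycling microglia and 199 and 193 CPM in non-cycling microglia, a log2 fold change of 1.62 ± 0.13 (adjusted p = 2.67e-06). Its cofactor Ranbp1 was higher by 1.25 ± 0.11 and the snoRNP protein Nop58 by 0.96 ± 0.13. Odc1, the first enzyme of polyamine synthesis, was at -0.21 ± 0.22 (adjusted p = 0.571).

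Energy metabolism moved by small amounts. In oxidative phosphorylation 11 of 27 genes were higher and 0 lower, with a median log2 fold change of 0.25. The electron carrier cytochrome c, Cycs, had 264 and 255 CPM in cycling microglia, against 143 and 136 CPM in non-cycling microglia (0.82 ± 0.13, adjusted p = 7.44e-04). Ndufa5, of complex I, was higher by 0.62 ± 0.11 and Cox7a2, of complex IV, by 0.61 ± 0.10. Only 4 of these genes were called without replicate 1, 2 without replicate 2, and 1 without the library block. In glycolysis and hypoxia 7 of 20 genes were higher and 1, hexokinase Hk2, lower, with a median of 0.00. Gapdh had 1942 and 2364 CPM in cycling microglia, against 1223 and 1217 CPM in non-cycling microglia (0.73 ± 0.12, adjusted p = 0.00122), and Pgk1 (0.60 ± 0.13), Pkm (0.58 ± 0.12) and the lactate dehydrogenase Ldha (0.52 ± 0.11) were also higher. The list had 3 higher calls without replicate 1 and 1 without replicate 2, and Hk2 was not called in either case (adjusted p of 0.128 and 0.146). The adjusted p of Pgk1 was 0.0746 without replicate 1 and 0.127 without replicate 2, and that of Pkm was 0.0904 without replicate 2.

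Microglia identity genes were lower in part. Of 39 tested identity genes outside the rule, 20 were lower and 0 higher, with a median log2 fold change of -0.47, against -0.11 over all genes. Entpd1, the ectonucleotidase CD39 that degrades extracellular ATP, had 84.0 and 87.5 CPM in cycling microglia, against 136 and 183 CPM in non-cycling microglia, a log2 fold change of -0.96 ± 0.13 (adjusted p = 3.53e-04). Crybb1, a crystallin gene typical of resting microglia, had 197 and 214 CPM in cycling microglia, against 326 and 434 CPM in non-cycling microglia (-0.95 ± 0.18, adjusted p = 0.00406). Upk1b had 3.12 and 4.21 CPM in cycling microglia, against 8.58 and 13.2 CPM in non-cycling microglia (-1.63 ± 0.35, adjusted p = 0.0101). The core genes that follow were not among the calls: Cx3cr1, the fractalkine receptor, was at -0.26 ± 0.20 (adjusted p = 0.438), Csf1r at -0.45 ± 0.15 (adjusted p = 0.0565) and Trem2 at -0.30 ± 0.18 (adjusted p = 0.304).

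The identity calls thinned when a library was left out, to 11 without replicate 1 and 5 without replicate 2, and were 21 without the collagen-rich cells. The adjusted p of Crybb1 was 0.0715 without replicate 2, and that of Upk1b was 0.103 without replicate 1 and 0.115 without replicate 2. The gate genes, which the rule used and which were not tested, had a median of 37.9 and 51.9 of 10000 UMIs in cycling microglia, against 44.6 and 66.5 in non-cycling microglia.

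Among genes of CSF1 and growth factor signalling, 1 of 24 was higher and 3 were lower, with a median log2 fold change of -0.26. Over all tested genes 8.91% were higher and 6.83% lower, so the genes below are read singly. Igf1, the growth factor insulin-like growth factor 1, had 257 and 108 CPM in cycling microglia and 181 and 53.2 CPM in non-cycling microglia, so that the cycling value of replicate 2 lay below the non-cycling value of replicate 1. Its log2 fold change was 0.67 ± 0.17 (adjusted p = 0.0212), and its adjusted p was 0.132 without replicate 1, 0.131 without replicate 2 and 0.651 without the library block. After thinning to 2000 UMIs, 32.2% and 14.4% of cycling microglia had an Igf1 UMI, against 19.9% and 6.51% of non-cycling microglia. Lower were Irs2 (-1.14 ± 0.22), an adaptor of insulin and IGF receptors, Pdgfb (-0.80 ± 0.16), a mitogen for mural cells, and Inpp5d (-0.46 ± 0.12), the lipid phosphatase SHIP1. Without replicate 2 none of these 3 was called, at adjusted p of 0.0911, 0.134 and 0.177, and without replicate 1 Inpp5d was at 0.0818. The ligand Csf1 was at -0.35 ± 0.31 (adjusted p = 0.483).

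The lipid-associated and disease-associated list, which rises in microglia around damaged tissue, had 2 of 27 genes higher and 2 lower. The median log2 fold change was 0.09. Both counts were near the background of 8.91% of genes higher and 6.83% lower, so the genes below are read singly. Ch25h, which makes 25-hydroxycholesterol, had 56.7 and 59.8 CPM in cycling microglia, against 23.8 and 21.9 CPM in non-cycling microglia, a log2 fold change of 1.27 ± 0.16 (adjusted p = 1.90e-04). UMIs of Ch25h were in 9.0% and 9.1% of thinned cycling cells and 3.40% and 2.63% of thinned non-cycling cells. Lpl, lipoprotein lipase, had 439 and 379 CPM in cycling microglia, against 255 and 145 CPM in non-cycling microglia (1.02 ± 0.18, adjusted p = 0.00226, but 0.0710 without replicate 2). Spp1 (osteopontin) had 3563 and 1299 CPM in cycling microglia and 2217 and 739.5 CPM in non-cycling microglia, a difference of 0.67 ± 0.21 that missed the threshold (adjusted p = 0.0545). Apoe (-0.40 ± 0.08, adjusted p = 0.00521) and Lyz2 (-0.43 ± 0.12, adjusted p = 0.0330) were lower, with adjusted p of 0.113 and 0.264 without replicate 2 and of 0.0785 for Lyz2 without replicate 1.

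Immediate early genes, which switch on within minutes of a stimulus and also when tissue is taken apart, were lower in cycling microglia. Of 22 genes 17 were lower and 0 higher, with a median log2 fold change of -0.96. Egr1 had 434 and 219.7 CPM in cycling microglia, against 753 and 566 CPM in non-cycling microglia (-1.12 ± 0.31, adjusted p = 0.0279). Thinned to 2000 UMIs, 36.2% and 27.4% of cycling cells had an Egr1 UMI, against 54.7% and 49.2% of non-cycling cells. Ier2 (-1.08 ± 0.25) and the heat shock gene Hspa1a (-1.13 ± 0.23, which may share reads with its copy Hspa1b) were lower as well. The count rested on replicate 2: without it 2 genes were called and Egr1 had an adjusted p of 0.273, Ier2 of 0.156 and Hspa1a of 0.0934, without replicate 1 the count was 19, and without the library block it was 2.

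Inflammatory mediators were lower in 5 of 24 cases and higher in 0, with a median log2 fold change of -0.58. Il1a, the alarm cytokine interleukin 1 alpha, had 142 and 133 CPM in cycling microglia, against 242 and 269 CPM in non-cycling microglia (-0.97 ± 0.13, adjusted p = 2.06e-04). The stress gene Gadd45b (-0.87 ± 0.14) and the adhesion receptor Icam1 (-0.82 ± 0.14) were also lower, while Tnf (-0.30 ± 0.23, adjusted p = 0.421) and Il1b (-0.62 ± 0.65, adjusted p = 0.567) did not pass the test. The count was 6 without replicate 1 and 3 without replicate 2.

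Of 10 glucocorticoid response genes 7 were lower and 0 higher (median log2 fold change -0.96). Pik3ip1, an inhibitor of PI3 kinase, had 8.06 and 4.74 CPM in cycling microglia, against 16.3 and 18.8 CPM in non-cycling microglia (-1.53 ± 0.31, adjusted p = 0.00511). Klf9 (-1.14 ± 0.26) and Ddit4 (-1.14 ± 0.35) were lower too. The count was 5 without replicate 1, where Ddit4 had an adjusted p of 0.124. Without replicate 2 the count was 1, with adjusted p of 0.155 for Pik3ip1, 0.247 for Klf9 and 0.389 for Ddit4.

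Interferon response genes gave 1 lower call of 26 and 0 higher (median -0.28), against the background of 6.83% lower. The call was Ifit3 (-0.81 ± 0.22, adjusted p = 0.0280, but 0.291 without replicate 1), which may share reads with Ifit3b. In antigen presentation 3 of 18 genes were lower and 0 higher (median -0.21): the class I genes H2-D1 (-0.45 ± 0.09) and H2-K1 (-0.38 ± 0.11), which are near-identical in part, and the costimulator Cd86 (-0.53 ± 0.14). Without replicate 2 none of the 3 passed, at adjusted p of 0.129, 0.270 and 0.270. Without replicate 1 the adjusted p was 0.0925 for H2-K1 and 0.0522 for Cd86.

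**Figure D3:**
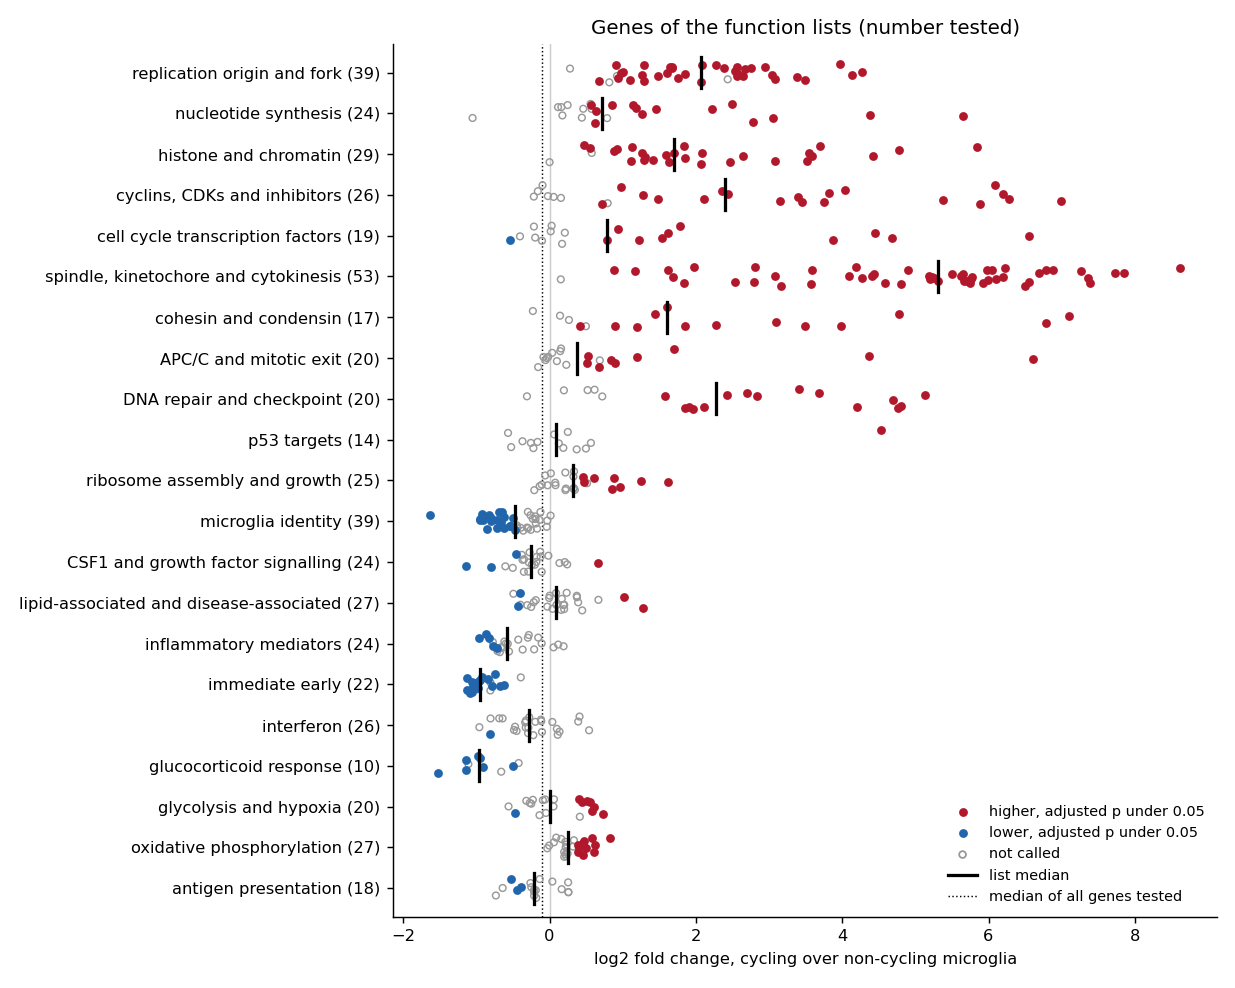
Log2 fold changes, cycling minus non-cycling microglia, of every tested gene of 21 function lists: filled red points were called higher, filled blue points called lower and open points not called, the black bar is the list median and the dotted line the median of all tested genes (-0.11). The spindle list has the highest median (5.31), and the immediate early and glucocorticoid lists the lowest (both -0.96).

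Outside the lists, the 10 called genes with the largest positive log2 fold change were again of division: Pbk (7.86 ± 0.27), Aspm (7.86 ± 0.33), Pimreg (7.49 ± 0.32), Melk (7.43 ± 0.52), Neil3 (7.29 ± 0.41), Shcbp1 (6.49 ± 0.40), Kifc1 (6.36 ± 0.40), Cep55 (6.21 ± 0.30), Pclaf (6.21 ± 0.31) and the noncoding Lockd (6.04 ± 0.33). Pbk, a mitotic kinase, had 92.3 and 86.1 CPM in cycling microglia, against 0.501 and 0.220 CPM in non-cycling microglia. Aspm, a spindle pole protein, had 43.9 and 38.5 CPM in cycling microglia, against 0.167 and 0.132 CPM in non-cycling microglia. Cep55, which cuts the bridge between daughter cells, had 27.6 and 36.9 CPM in cycling microglia, against 0.445 and 0.352 CPM in non-cycling microglia.

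The 10 lower genes outside the lists were largely genes of other brain cell types and of matrix. Those with the largest negative change were Ptgds (-4.69 ± 0.29), the choroid plexus gene Ttr (-4.03 ± 0.84), Cemip (-3.13 ± 0.79), Apod (-2.50 ± 0.43), the astrocytic metallothionein Mt3 (-2.28 ± 0.55), Itih5 (-2.22 ± 0.40), the chemokine Cxcl12 (-2.14 ± 0.54), the monocyte gene Chil3 (-1.80 ± 0.52), elastin Eln (-1.92 ± 0.50) and vitronectin Vtn (-1.74 ± 0.32). Ptgds, the prostaglandin D synthase of meningeal and glial cells, had 7.02 and 0.527 CPM in cycling microglia, against 192 and 2.86 CPM in non-cycling microglia, so the classes differ within each library and overlap across the libraries. Ttr had 3.90 and 0 CPM in cycling microglia, with no UMI in replicate 2, against 20.2 and 37.3 CPM in non-cycling microglia. Without the collagen-rich cells Ptgds was still called (-5.14), as were Ttr (-3.93), Apod (-1.74) and Chil3 (-1.84), whereas Cxcl12 (adjusted p = 0.323), Itih5 (0.0883), Eln (0.913) and Vtn (0.305) were not, Mt3 stood at 1.86 (adjusted p = 0.152) and Cemip was too low to test. Markers of astrocytes summed to 57.2 and 41.6 CPM in cycling microglia and to 97.8 and 118 CPM in all gate cells with 0 division UMIs, and the part of free RNA or attached cells in these lower genes was not tested. Without replicate 2 the calls of Ttr, Apod, Chil3, Itih5, Cxcl12, Eln, Vtn, Mt3 and Cemip were lost (adjusted p from 0.0509 to 0.337), and without replicate 1 those of Cxcl12 (0.0865), Mt3 (0.144) and Cemip (0.135).

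Cells of the gate were also binned by the number of division UMIs per cell, here without the collagen-rich cells and as a description. The spindle list summed to 859 and 959 CPM in gate cells with 0 division UMIs and reached 8141 and 9616 CPM in members with over 10. Identity genes stood at 98995 and 118625 CPM with 0 division UMIs and at 73694 and 77894 CPM with over 10. Immediate early genes were at 18171 and 20867 CPM with 0 and at 9627 and 9141 CPM with over 10, and cells with only 1 division UMI were already at 14090 and 15705 CPM. Oxidative phosphorylation genes stood at 7405 and 6474 CPM with 0 and at 10520 and 9687 CPM with over 10. The lipid-associated list was at 68194 and 47953 CPM with 0 and at 65816 and 52157 CPM with over 10, so its 2 libraries moved in opposite directions. Median depth moved along the same bins, at 3427 and 5035 UMIs per cell with 0 and 10019 and 15946 UMIs with over 10. The part of depth in these values was not tested here. For the fold changes above, only the non-cycling cells were limited to a range of depth. Their median was 6160 and 8657 UMIs, against 8312 and 13230 UMIs in cycling microglia. With non-cycling cells weighted by UMI bin, 930 genes were higher and 951 lower, against 996 and 764. Only part of the calls were the same genes: 852 of the 996 higher and 524 of the 764 lower were called again.

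**Figure D4:**
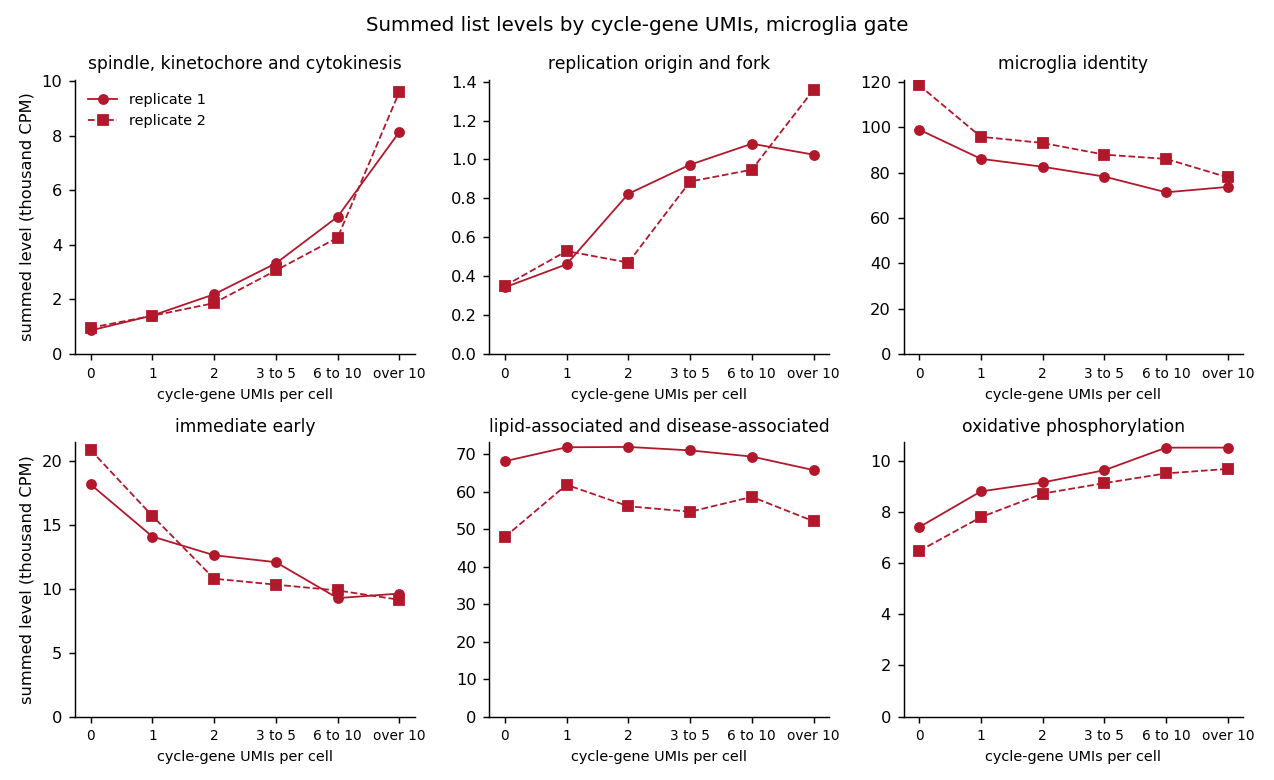
Summed level of 6 gene lists, in CPM divided by 1000, in microglial gate cells grouped by division UMIs per cell (0, 1, 2, 3 to 5, 6 to 10 and over 10), without the collagen-rich cells; the solid line is replicate 1 and the dashed line replicate 2. Identity and immediate early genes are lower, and spindle and oxidative phosphorylation genes higher, in the bin over 10 than in the bin of 0 in both libraries.

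Cycling macrophages were taken for comparison. They numbered 270 and 15 cells, so that replicate 2 rests on few cells. Of the 285, 24 had under 50 of 10000 UMIs from the 8 pan-myeloid genes, and collagen was not examined in them. Against non-cycling macrophages of their own UMI range, 905 genes were higher and 656 lower of the same 11178 (a background of 14% of genes in either direction, 8.1% higher and 5.87% lower), in the same fit. The change with cycling differed between microglia and macrophages for 110 genes (0.984% of those tested), 52 with a higher and 58 with a lower value in microglia, by the interaction term of that fit. That count was fragile, at 13 and 17 without replicate 1, 3 and 8 without replicate 2, and at 9 and 12 against all non-cycling cells.

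Both classes had the same number of division genes called. In the 9 division lists 194 genes were higher and 1 lower in microglia, and 194 higher and 1 lower in macrophages. The median log2 fold change of the spindle list was 5.31 in microglia and 5.39 in macrophages, and that of the replication list 2.07 in microglia and 2.02 in macrophages. The difference was called for 7 division genes, which are Ccnd1, Ccnd3, Ckap2l, Kif2c, Myc, Ncapg2 and Tyms. Ccnd1, on chromosome 7 from 144929931 to 144939925 on the minus strand (GRCm38), was called in the test of the difference and in all 10 alternatives of it. Its log2 fold change was 0.06 ± 0.16 in microglia, against 2.16 ± 0.21 in macrophages, a difference of -2.10 ± 0.26 (adjusted p = 0.00547). It stood at 103 and 110.3 CPM in cycling macrophages and 17.8 and 23.7 CPM in non-cycling macrophages. Both classes of microglia lay between these levels. Ccnd3 differed by -1.52 ± 0.25 (adjusted p = 0.0174) and Myc by -1.50 ± 0.29 (adjusted p = 0.0350). Kif2c and Ckap2l were higher with cycling in both classes, by more in macrophages. Ckap2l, a spindle protein, had 67.3 and 60.3 CPM in cycling microglia and 12.97 and 8.37 CPM in non-cycling microglia, against 40.3 and 49.0 CPM in cycling macrophages and 0.223 and 0 CPM in non-cycling macrophages. Without replicate 1 or 2 the adjusted p of the difference was 0.0766 or 0.101 for Ccnd3 and 0.128 or 0.159 for Myc. Against all non-cycling cells the difference was -3.40 for Kif2c and -3.10 for Ckap2l, both still called, and the adjusted p was 0.0707 for Myc. Without the library block the adjusted p was 0.203 for Ccnd3, 0.189 for Myc and 0.0586 for Ckap2l.

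The change of 8 lipid-associated genes differed between the classes. With cycling, 2 of 27 genes were lower and 2 higher in microglia (median 0.09), against 18 lower and 1 higher in macrophages (median -0.84), and the difference was called for 8 genes, all with a higher value in microglia. Without the cells under the pan-myeloid minimum, the difference was called for 6 genes and the median in macrophages was -0.67. Spp1 had a log2 fold change of 0.67 ± 0.21 in microglia, against -1.37 ± 0.22 in macrophages, a difference of 2.04 ± 0.31 (adjusted p = 0.0127). Its level was 10748 and 3929.5 CPM in cycling macrophages and 17151 and 11275 CPM in non-cycling macrophages. Fabp3, a fatty acid carrier, differed by 2.05 ± 0.34 (adjusted p = 0.0179) and Cd5l, a scavenger protein secreted by macrophages, by 2.07 ± 0.43 (adjusted p = 0.0484). Igf1, of the growth factor list, had a log2 fold change of 0.67 ± 0.17 in microglia, against -0.94 ± 0.20 in macrophages, a difference of 1.61 ± 0.26 (adjusted p = 0.0174). The 8 calls of the list were 6 without replicate 1, 2 without replicate 2 and 2 against all non-cycling cells. Without the library block edgeR called 0 of the list, with 6 genes at an unadjusted p under 0.05 and Spp1 at an adjusted p of 0.599, and DESeq2 with the block called 11. Without replicate 2 the adjusted p was 0.101 for Fabp3 and 0.0751 for Igf1, and it was 0.196 for Cd5l, and without replicate 1 it was 0.131 for Cd5l and 0.0621 for Igf1. Against all non-cycling cells it was 0.334 for Cd5l, 0.0734 for Igf1 and 0.0598 for Fabp3.

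Immediate early genes, of which 17 were lower in microglia, had 1 lower in macrophages (median -0.56). The difference itself was called for 0 of the 22 genes by edgeR's quasi-likelihood test and for 0 by DESeq2, with 3 at an unadjusted p under 0.05. Oxidative phosphorylation genes, 11 of them higher in microglia, had 1 higher and 1 lower in macrophages. Their difference was called for 0 of 27 by edgeR's quasi-likelihood test, for 10 by DESeq2 and for 16 at an unadjusted p under 0.05, all with a higher value in microglia. For both lists the change was therefore not shown to differ between the classes by the test used throughout.

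**Figure D5:**
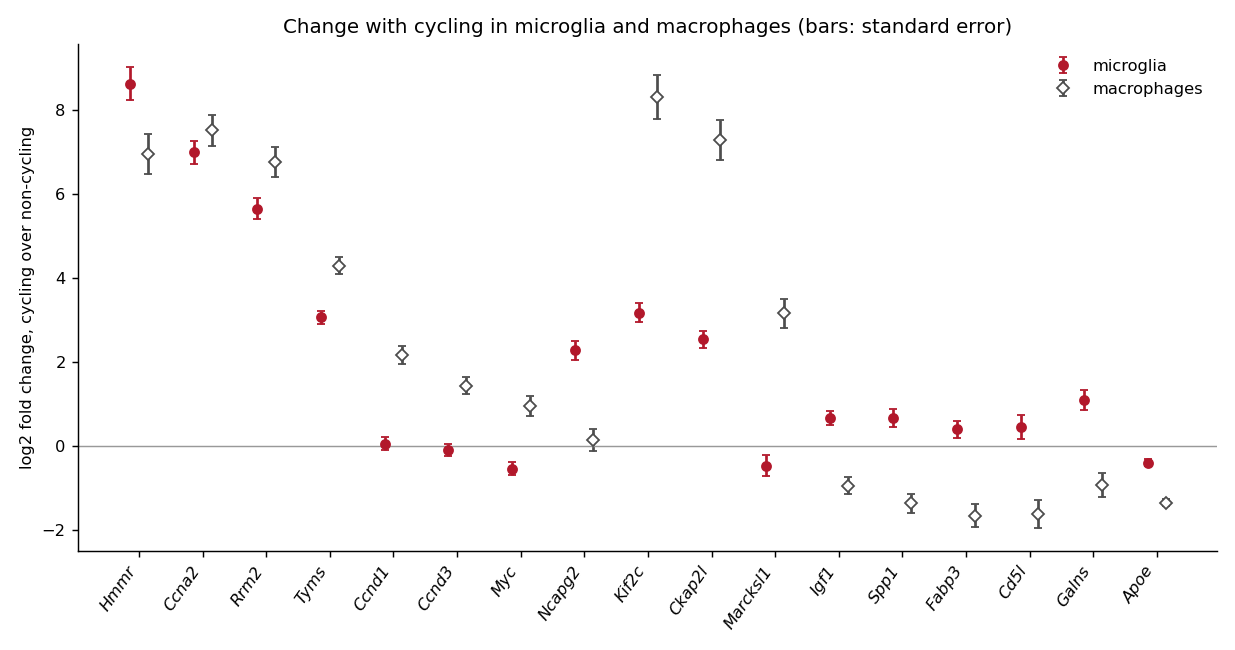
Log2 fold changes, cycling minus non-cycling, of 17 genes in microglia (filled, left) and in macrophages (open, right). Bars are 1 SE worked back from the F statistic of the test, in the fit of 2 libraries. Hmmr, Ccna2 and Rrm2 are far above 0 in both, Ccnd1 is near 0 in microglia and above 0 in macrophages, and Spp1 lies on opposite sides of 0.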

How the data were processed

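The authors deposited matrices of UMI counts, not normalized, which per the file headers come from Cell Ranger 4. Tools named in the submitters' processing notes are Cell Ranger 4.0.0, STAR 2.5.1b and Seurat 4, with GRCh38, GRCm38 and mm10 as builds; the role of each build and the counting of reads shared by near-identical genes are not given in the sources used here.

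Cells were called and gated here by the thresholds stated with the results. Scrublet through scanpy 1.11.5 marked 1426 cells (9.48%) of replicate 1 as doublets; in replicate 2 it marked none, so the 501 cells with the highest scores (6.33%) were taken. Doublets stayed in, and their removal was an alternative. Counts were summed per library over 6 classes (cycling, 1 or 2 division UMIs and non-cycling, each for microglia and macrophages), which gave 12 sums. edgeR 4.0.16 fitted its quasi-likelihood test to all of them with library as a block, after leaving out the 13 genes of the rule and mitochondrial genes and filtering low counts, and p-values were adjusted by Benjamini-Hochberg over 11178 genes. Deviations from the class means were correlated within a library at 0.33, and each comparison sets cells against others of their own library. DESeq2 1.42.0 was an alternative. The test was tried on simulated data.

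Thinned values draw 2000 UMIs per cell without replacement. Named genes were up to 3 called genes of each list and direction with the largest change and the same sign in both libraries, 10 called genes in each direction outside the lists with at least 20 CPM, and 6 in each direction of the difference. Some genes that this rule picks are not reported here. Other genes were named for their role after their values were seen. The members and the lists were chosen with earlier results of these data known.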

Additional observations from a re-analysis of the deposited data

Results flagged for a closer look

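For 12 genes the change with cycling differed between microglia and macrophages by the interaction term of the fit (edgeR's quasi-likelihood test, adjusted p under 0.05), and these had the largest differences in each direction. Log2 fold changes are cycling minus non-cycling, and differences are microglia minus macrophages, each ± SE.

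The difference was positive for 6 genes. It was 2.63 ± 0.55 for Tst, a mitochondrial sulfurtransferase (0.47 ± 0.39 in microglia and -2.16 ± 0.37 in macrophages, adjusted p = 0.0487). For the condensin subunit Ncapg2 it was 2.13 ± 0.34 (2.28 ± 0.23 in microglia and 0.15 ± 0.26 in macrophages, adjusted p = 0.0174). Cd5l had 2.07 ± 0.43 (0.45 ± 0.29 in microglia and -1.62 ± 0.33 in macrophages, adjusted p = 0.0484) and Fabp3 2.05 ± 0.34 (0.39 ± 0.21 in microglia and -1.66 ± 0.27 in macrophages, adjusted p = 0.0179). Spp1 had 2.04 ± 0.31 (0.67 ± 0.21 in microglia and -1.37 ± 0.22 in macrophages, adjusted p = 0.0127), and Galns, a lysosomal sulfatase, 2.02 ± 0.37 (1.08 ± 0.24 in microglia and -0.94 ± 0.29 in macrophages, adjusted p = 0.0286).

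The difference was negative for the other 6. Kif2c, a kinesin that takes microtubules apart, had -5.13 ± 0.70 (3.16 ± 0.23 in microglia and 8.29 ± 0.52 in macrophages, adjusted p = 0.00808), and the spindle protein Ckap2l -4.74 ± 0.58 (2.53 ± 0.21 in microglia and 7.27 ± 0.47 in macrophages, adjusted p = 0.00508). Both were higher with cycling in each class. Their non-cycling macrophages held 1 and 0 UMIs of Kif2c and 4 and 0 of Ckap2l in replicates 1 and 2, so the size of the change there is poorly fixed. Nbl1 had -5.13 ± 0.92 (-1.18 ± 0.27 in microglia and 3.95 ± 0.88 in macrophages, adjusted p = 0.0265), from 3 and 0 UMIs in non-cycling macrophages. Igfbp4, a binding protein of insulin-like growth factors, had -3.86 ± 0.52 (-1.18 ± 0.32 in microglia and 2.68 ± 0.41 in macrophages, adjusted p = 0.00808). Marcksl1, an actin regulator, had -3.62 ± 0.43 (-0.47 ± 0.26 in microglia and 3.15 ± 0.35 in macrophages, adjusted p = 0.00503), and the gap junction gene Gja1 -3.61 ± 0.73 (-0.96 ± 0.33 in microglia and 2.64 ± 0.65 in macrophages, adjusted p = 0.0441).

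Without replicate 1 of the cycling microglia the adjusted p was 0.131 for Cd5l, 0.164 for Tst, 0.0639 for Ncapg2, 0.0544 for Nbl1 and 0.0888 for Gja1. Without replicate 2 it was 0.196 for Cd5l, 0.224 for Tst, 0.101 for Ncapg2, 0.101 for Fabp3, 0.139 for Galns, 0.0555 for Kif2c, 0.101 for Nbl1 and 0.130 for Gja1. Without the 15 cycling macrophages of replicate 2 it was 0.0675 for Tst, 0.0562 for Cd5l, 0.0561 for Galns and 0.0692 for Gja1. Against all non-cycling cells it was 0.334 for Cd5l, 0.216 for Tst, 0.112 for Galns, 0.0598 for Fabp3, 0.0669 for Nbl1, 0.131 for Gja1 with a difference of -2.90, and 0.197 for Marcksl1 with a difference of -2.30. Kif2c and Ckap2l were still called there, with smaller differences of -3.40 and -3.10. With doublets removed the difference of Nbl1 was -3.31 (adjusted p = 0.546) and that of Gja1 -4.38, still called. Cells under the minimum of 50 of 10000 pan-myeloid UMIs made up 24 of the 285 cycling macrophages. With such cells removed from both gates, the difference of Gja1 was -1.85 (adjusted p = 0.389) and that of Igfbp4 -2.56, still called. Without the library block Kif2c and Marcksl1 were still called, and the adjusted p of the other 10 genes ran from 0.0586 for Ckap2l to 0.816 for Cd5l.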

How the results depend on the processing

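With 2 libraries, counts of calls move with the setting. In cycling against non-cycling microglia, the 996 higher genes were 598 without the library block. They were 417 to 581 with the cycling cells of 1 library left out, and 1724 with only cycling and non-cycling microglia in the fit. That last fit dropped all macrophage sums as well as microglia with 1 or 2 division UMIs. It had 1 residual degree of freedom, against 5 in the main fit. The 764 lower genes were 188 without the block, 504 by DESeq2, 1186 with no filter on low counts, 427 with cycling set at 2 UMIs and 1163 without the collagen-rich cells, an alternative chosen after seeing the data, and 66 to 239 with 1 library left out. Without the 15 cycling macrophages of replicate 2, also chosen after seeing the data, the counts in microglia were 1085 and 719, and those of the difference 50 and 42. In macrophages the 656 lower genes were 206 without the block. Of the genes whose change differed between the classes, the 52 with a higher value in microglia were 0 without the block (980 genes in either direction had an unadjusted p under 0.05, and DESeq2 with the block called 340 higher), 9 against all non-cycling cells, 87 with DESeq2 size factors, 340 by DESeq2, 236 with no filter and 3 to 13 with 1 library left out. The 58 with a lower value were 5, 12 against all non-cycling cells, 265 with no filter and 8 to 17 with 1 library left out. With no filter edgeR tested 19078 genes and its prior degrees of freedom were 573, against 7.15 with the filter, so the spread of each gene was drawn almost wholly to the trend and those counts are not read as added evidence. The other calls lost without the block are not read as weaker effects, since the block is part of the design. The mean share passing as cycling was 5.30%, and 3.71% at 5 UMIs, 6.72% at 2 UMIs and 2.24% after thinning.

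Mt3 reversed, to 0.97 (adjusted p = 0.451) with the gate at 20 of 10000 UMIs and 1.86 (adjusted p = 0.152) without the collagen-rich cells; its adjusted p over the alternatives reached 0.591. Of 1410 recomputed values of 83 named genes in microglia, 1274 kept direction and call, 134 kept direction and lost the call, and 2 reversed, both of Mt3; of 180 values of the differences of 18 genes, 119 kept both and 61 lost the call. The cause of these shifts in single genes was not tested. Depth limits the genes near 0 in non-cycling cells, whose fold change rests on a few UMIs.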
